A study of Mus musculus with 6 samples.

Results

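The dual-specificity MAP kinase phosphatases are enzymes that remove phosphate from both the threonine and the tyrosine of the activation loop of MAP kinases. The members examined were Dusp1, Dusp2, Dusp4, Dusp5, Dusp6, Dusp7, Dusp8, Dusp10 and Dusp16, chosen by gene symbol, and all 9 were found among the 54532 genes of the deposited tables. Expression was measured by RNA-seq of poly(A)-selected RNA in CD4+ T cells of the spleen. The mice were wild type C57BL/6J with a colitis produced by dextran sulfate sodium (DSS), a sulfated polysaccharide that injures the colonic epithelium. In one group (3 libraries) they were dosed every day with Akkermansia muciniphila, a bacterium of the gut that degrades mucin, and in the other (3 libraries) with phosphate-buffered saline (PBS). Mice of both groups received DSS in the drinking water, so no library represents a mouse without colitis. The sources used here do not give age, sex, the number of mice behind each library or how the T cells were isolated.

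In T cells, antigen receptor signals run through Ras to the kinase ERK and, through other kinase cascades, to JNK and p38. Many phosphatases of this family are themselves induced by these kinases and switch them off again, so their transcripts form a negative feedback. The family has an inducible nuclear branch (Dusp1, Dusp2, Dusp4 and Dusp5), a cytoplasmic branch that prefers ERK (Dusp6 and Dusp7) and a branch that prefers JNK and p38 (Dusp8, Dusp10 and Dusp16). The comparison asks how treatment with the bacterium is reflected in the transcripts of these regulators.

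The libraries held 15032257 to 16677923 counts. The library descriptions name CD4 for those numbered 1, CD5 for those numbered 2 and CD6 for those numbered 3, in both groups, whereas the cell type entry is CD4+ T cells throughout and all carry batch label 1. The first principal component (41.8% of the variance) separated the groups, and the second (20.8%) placed PBS 2 (37.1) away from PBS 1 at -13.4 and PBS 3 at -27.7. All 10 T cell markers were present and 4 of them rose (Cd4, Cd3e, Cd5 and Thy1; 1 with scaling to CD3 transcripts), with summed levels of 4550 to 4753 CPM (counts scaled to library size) in the Akkermansia libraries and 3956 to 4080 CPM in the PBS libraries. Markers of other blood cells moved as well. All 10 B cell markers rose (summed levels 392 to 529 CPM with Akkermansia and 192 to 211 CPM with PBS), as did both CD8 T cell markers (61.3 to 93.4 and 19.1 to 20.2 CPM) and 3 of 6 tested natural killer cell markers (49.3 to 60.4 and 37.5 to 42.3 CPM). Of the remaining lists, 3 of 6 dendritic cell markers rose (34.8 to 39.7 with Akkermansia and 15.1 to 22.3 CPM with PBS), 2 of 6 tested neutrophil markers rose (85.1 to 180.4 and 20.2 to 60.5 CPM), 1 of 9 monocyte and macrophage markers rose (409 to 447 and 313 to 407 CPM), and 1 of 6 erythroid markers fell (214 to 373 and 424 to 978 CPM). Leaving out 1 library moved some of these counts: 2 T cell markers rose without Akkermansia 1, Akkermansia 3 or PBS 1, 1 dendritic marker rose without Akkermansia 1, Akkermansia 3, PBS 1 or PBS 3, and 2 monocyte and macrophage markers rose without Akkermansia 1 and 3 without PBS 2. No marker on these lists was at 0 in all libraries. The part of these cells in the results that follow was not tested, and fewer cells of a type cannot be told apart from less RNA per cell.

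To show the sequences around the annotated starts of these genes, promoter windows of 250 bases before and 50 bases after the start were taken from RefSeq. Their build, GRCm38.p6, is older than the GRCm39 build named for the counts. Which starts were used in these cells was not tested. Windows were matched for 8 of the 9 genes, all but Dusp4. Each was searched on both strands for the cAMP response element TGACGTCA, the AP-1 site TGANTCA, the E-box CACGTG and the CArG box, the element bound by serum response factor. In these windows no match of one motif overlapped a match of another. The windows of 3 genes that were lower with Akkermansia (Dusp5, Dusp8 and Dusp10) and of Dusp1, the most abundant member, are given 5′ to 3′ on the strand of the gene, with matches in capitals.
Dusp5: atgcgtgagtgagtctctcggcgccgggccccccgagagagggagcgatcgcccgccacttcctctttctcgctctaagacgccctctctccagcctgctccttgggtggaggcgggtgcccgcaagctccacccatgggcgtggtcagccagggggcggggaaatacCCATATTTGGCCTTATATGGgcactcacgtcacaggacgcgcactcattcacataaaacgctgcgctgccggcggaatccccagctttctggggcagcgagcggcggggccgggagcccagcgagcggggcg
Dusp8: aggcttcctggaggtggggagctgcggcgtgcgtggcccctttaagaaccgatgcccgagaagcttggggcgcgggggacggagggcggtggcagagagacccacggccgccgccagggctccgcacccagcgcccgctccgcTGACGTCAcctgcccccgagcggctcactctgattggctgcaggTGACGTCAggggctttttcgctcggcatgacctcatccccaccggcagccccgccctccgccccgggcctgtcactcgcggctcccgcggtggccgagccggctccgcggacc
Dusp10: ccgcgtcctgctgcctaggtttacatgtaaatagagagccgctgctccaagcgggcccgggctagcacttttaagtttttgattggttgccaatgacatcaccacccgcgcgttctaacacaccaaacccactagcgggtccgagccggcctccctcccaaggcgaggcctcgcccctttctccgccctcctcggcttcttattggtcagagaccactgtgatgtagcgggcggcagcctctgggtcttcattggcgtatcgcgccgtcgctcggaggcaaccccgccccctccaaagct
Dusp1: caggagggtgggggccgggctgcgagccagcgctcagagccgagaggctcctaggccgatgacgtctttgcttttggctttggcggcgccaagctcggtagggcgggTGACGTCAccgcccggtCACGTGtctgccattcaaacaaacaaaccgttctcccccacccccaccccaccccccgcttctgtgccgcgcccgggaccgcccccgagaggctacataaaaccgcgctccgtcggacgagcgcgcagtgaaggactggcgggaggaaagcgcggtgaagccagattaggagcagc
The Dusp5 window (chr19:53528895-53529194, plus strand) held 2 CArG boxes, which begin 82 and 72 bases before the start and adjoin each other in the run CCATATTTGGCCTTATATGG. A CArG box was present in 1.63% of 32851 windows, and at least 2 were present in 6 windows. The Dusp8 window (chr7:142095235-142095534, minus strand) held 2 cAMP response elements, 107 and 63 bases before the start, and the Dusp1 window (chr17:26508423-26508722, minus strand) held 1, at 143 bases, followed by an E-box at 126 bases. The cAMP response element was present in 1.79% and the E-box in 7.15% of windows. The Dusp10 window (chr1:184034131-184034430, plus strand) held none of the 4 motifs, and none of the 8 windows held the AP-1 site, which 7.81% of all windows contain. The other windows held no match, apart from an E-box in that of Dusp2 109 bases before the start.

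Of the 9 phosphatase genes, 5 fell with Akkermansia and none rose. Dusp4, Dusp5, Dusp6, Dusp8 and Dusp10 passed the threshold of an adjusted p of 0.05 in edgeR's quasi-likelihood test, and Dusp1, Dusp2, Dusp7 and Dusp16 did not. Across all 15138 genes tested, 8.28% were called lower and 7.32% higher. The median log2 fold change (Akkermansia over PBS) of the 9 genes was -0.42, against -0.0081 over all genes tested. The 9 genes were chosen with earlier results of these data known, so their contrast with all genes is a description. All 9 genes passed the filter on low counts, and their fitted values ranged from -2.38 to 0.24. At an unadjusted p under 0.05 in edgeR's quasi-likelihood test, Dusp1 was also lower (0.0463) and Dusp7 higher (0.0264). None of the alternative fits, DESeq2 and limma-voom included, called any member higher. The count of lower genes was 3 without Akkermansia 1 or Akkermansia 2 and 2 without PBS 1.

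**Figure D1:**
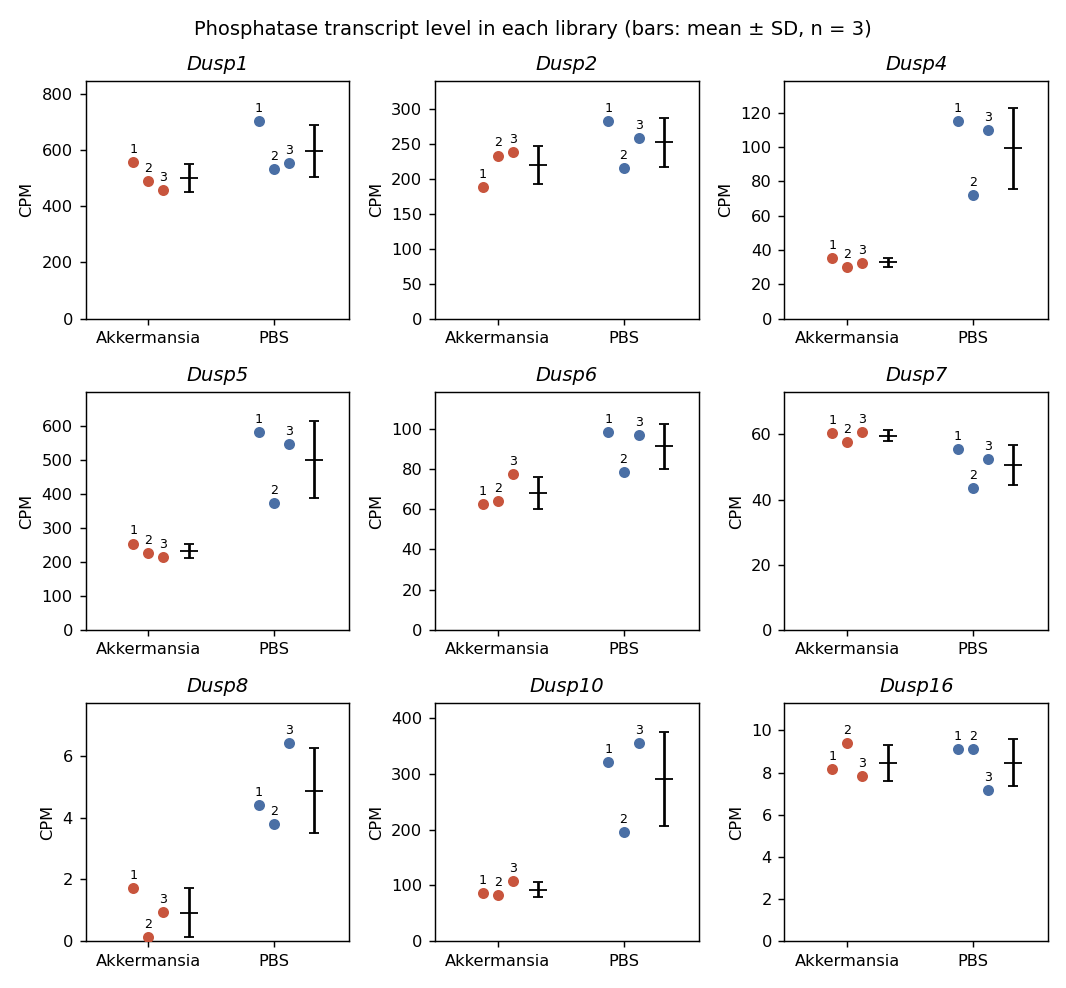
Transcript level of each phosphatase gene in CPM (linear axes from 0) in the 3 Akkermansia and 3 PBS libraries, numbered 1 to 3, with the mean ± SD of each group. The groups are apart for Dusp4, Dusp5, Dusp6, Dusp8 and Dusp10, lower with Akkermansia, and for Dusp7, higher with Akkermansia.

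Among the inducible nuclear phosphatases, the largest change was that of Dusp4, which acts on ERK and JNK. Dusp4 had 35.3, 30.3 and 32.7 CPM in the Akkermansia libraries, against 115.3, 72.2 and 109.8 CPM in the PBS libraries. The Akkermansia libraries lay close together, and the lowest PBS library was more than double the highest of them. Dusp4 fell by 1.597 ± 0.18 (log2, SE, adjusted p = 0.00161), and was called in all 16 alternative fits (-1.78 to -1.48, adjusted p at most 0.0138). Dusp5, a nuclear phosphatase specific for ERK whose promoter window carries the paired CArG boxes, had 254, 227 and 213 CPM with Akkermansia, against 583, 374 and 548 CPM with PBS. The groups were apart, with a gap of over 100 CPM between Akkermansia 1 and PBS 2. Its level was 2.17-fold lower with Akkermansia (log2 -1.12 ± 0.17, adjusted p = 0.00757) and it too was called in all 16 alternative fits (-1.30 to -0.9998, adjusted p at most 0.0407).

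The other members of the nuclear branch did not pass the test. Dusp1, which acts mainly on p38 and JNK and is induced by stress and glucocorticoids, had 556, 489.7 and 458 CPM with Akkermansia and 705, 532 and 555 CPM with PBS. Akkermansia 1 lay above PBS 2 and PBS 3, so the groups overlapped (log2 fold change -0.25 ± 0.11, adjusted p = 0.158). Dusp2, first described in activated T cells, had 189, 233 and 238 CPM with Akkermansia and 283, 215 and 258 CPM with PBS, again with overlap (-0.20 ± 0.12, adjusted p = 0.293). Both values were below 0 in all 16 alternative fits. Dusp1 was called in 3 of them, namely with no filter on low counts (-0.24, adjusted p = 0.0117), with the replicate number as a block (-0.25, 0.039) and with scaling to CD3 transcripts (-0.43, 0.0213), while its adjusted p over all 16 reached 0.411. Dusp2 was called in none (adjusted p 0.0617 to 0.663).

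Both cytoplasmic ERK phosphatases were expressed, with values of opposite sign. Dusp6, the main cytoplasmic phosphatase of ERK, had 62.5, 64.2 and 77.3 CPM with Akkermansia, against 98.5, 78.4 and 97.0 CPM with PBS. The groups were separated only narrowly, by Akkermansia 3 and PBS 2. Dusp6 fell by 0.42 ± 0.11 (log2, SE, adjusted p = 0.0193). It was called in 10 of 16 alternative fits and was not called on either FPKM scale (adjusted p = 0.0664 and 0.0663) or without Akkermansia 1 (0.0849), Akkermansia 2 (0.0912), PBS 1 (0.0678) or PBS 3 (0.0541). Dusp7, its close relative, had 60.4, 57.6 and 60.8 CPM with Akkermansia and 55.6, 43.6 and 52.6 CPM with PBS. Here every Akkermansia library was above every PBS library, as for 17.1% of all genes tested, but the difference did not pass (0.24 ± 0.09, adjusted p = 0.111) in this or any alternative fit (adjusted p 0.0621 to 0.775). The 5 genes called lower were also those in which every Akkermansia library was below every PBS library, which held for 17.8% of genes tested.

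In the branch that prefers JNK and p38, Dusp10 carried nearly all of the transcripts. Dusp10, which in mouse T cells limits JNK activity, had 86.4, 82.3 and 107.9 CPM with Akkermansia, against 321, 196 and 356 CPM with PBS. The groups were apart, although PBS 2 was well below the other PBS libraries. Its level was 3.15-fold lower with Akkermansia (log2 -1.66 ± 0.27, adjusted p = 0.0212). The direction was the same in all 16 alternative fits (-1.87 to -1.49) and the gene was called in 13, the exceptions being without Akkermansia 1 (adjusted p = 0.0862), Akkermansia 2 (0.0835) or PBS 1 (0.0774). Dusp8 was the rarest member, with 27, 2 and 14 counts in the Akkermansia libraries, against 73, 58 and 105 counts in the PBS libraries. In Akkermansia 2 it was below the floor of 3 counts, which corresponds to 0.2 CPM in that library. Dusp8 fell by 2.38 ± 0.56 (log2, SE, adjusted p = 0.021), with a range of -3.18 to -1.88 when 1 library was left out, and was not called without Akkermansia 3 (0.0965) or PBS 1 (0.0582). On the scale of log2(FPKM + 1), which understates changes of rare transcripts, its value was -0.74. Dusp16, a JNK phosphatase, had 8.16, 9.41 and 7.82 CPM with Akkermansia and 9.12, 9.13 and 7.18 CPM with PBS. Its groups overlapped, and the fitted value was -0.0019 ± 0.17 (log2, SE, adjusted p = 0.996).

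**Figure D2:**
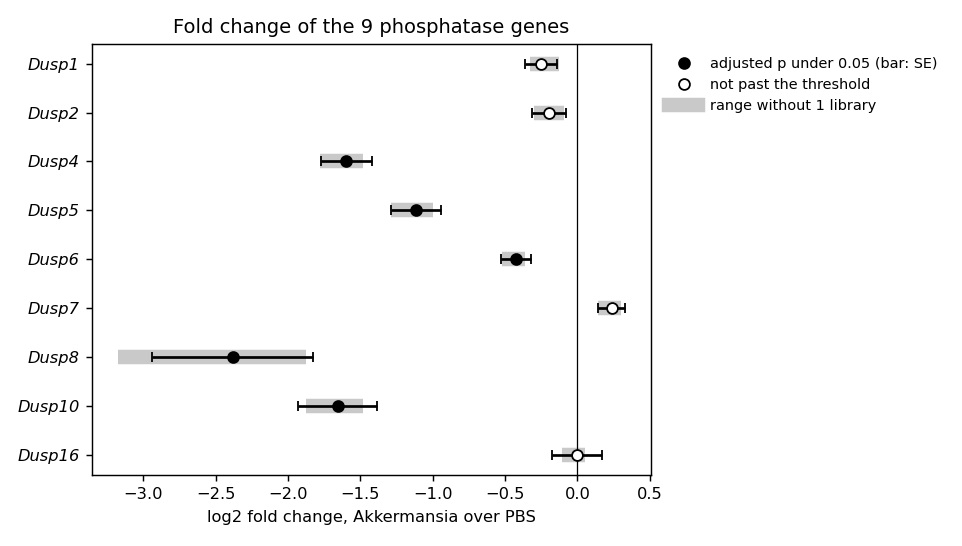
Log2 fold change (Akkermansia over PBS) of the 9 phosphatase genes with its SE, and as grey bars the range over the 6 fits that leave out 1 library. Filled points mark Dusp4, Dusp5, Dusp6, Dusp8 and Dusp10, which passed the threshold in the fit of all libraries. No grey bar of these genes reaches 0, and neither do those of Dusp1, Dusp2 and Dusp7, which did not pass. Only the bar of Dusp16 crosses 0.

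Levels of different genes were compared per gene length with the deposited FPKM values. In the Akkermansia libraries the order was Dusp1 (186 ± 18.1 FPKM, SD, n = 3), Dusp2 (109.9 ± 13.9), Dusp5 (93.7 ± 8.09), Dusp10 (30.4 ± 4.67), Dusp6 (21.8 ± 2.68), Dusp7 (17.8 ± 0.562), Dusp4 (11.97 ± 0.905), Dusp16 (1.09 ± 0.108) and Dusp8 (0.190 ± 0.160). In the PBS libraries Dusp1 (220.0 ± 33.4 FPKM, SD, n = 3) was followed by Dusp5 (201 ± 43.7), Dusp2 (125 ± 16.2), Dusp10 (94.9 ± 26.9), Dusp4 (35.9 ± 8.26), Dusp6 (29.0 ± 3.33), Dusp7 (14.97 ± 1.73), Dusp16 (1.08 ± 0.147) and Dusp8 (0.993 ± 0.280). Neighbours in this order whose means differed by less than the sum of their SDs were Dusp2 and Dusp5 in the Akkermansia group. In the PBS group they were Dusp1 and Dusp5, Dusp2 and Dusp10, Dusp4 and Dusp6, and Dusp16 and Dusp8.

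The summed FPKM of the family was 473 ± 9.02 in the Akkermansia libraries and 723 ± 122 in the PBS libraries (SD, n = 3), with no overlap (at most 483 and at least 588). Within that sum the make-up differed, as a consequence of the gene-level values above. Dusp5 made up 19.8 ± 1.37% of it with Akkermansia and 27.7 ± 1.71% with PBS, and Dusp10 made up 6.43 ± 1.03% and 12.98 ± 2.21%. Dusp1 had the larger share with Akkermansia, 39.3 ± 3.14%, against 30.6 ± 3.38% with PBS, although its own level was not higher. The ratio of Dusp5 to Dusp1 (FPKM) was 0.498 to 0.509 in the Akkermansia libraries and 0.766 to 1.08 in the PBS libraries. The ratio of Dusp4 to Dusp7 was 0.644 to 0.716 with Akkermansia and 2.03 to 2.56 with PBS.

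**Figure D3:**
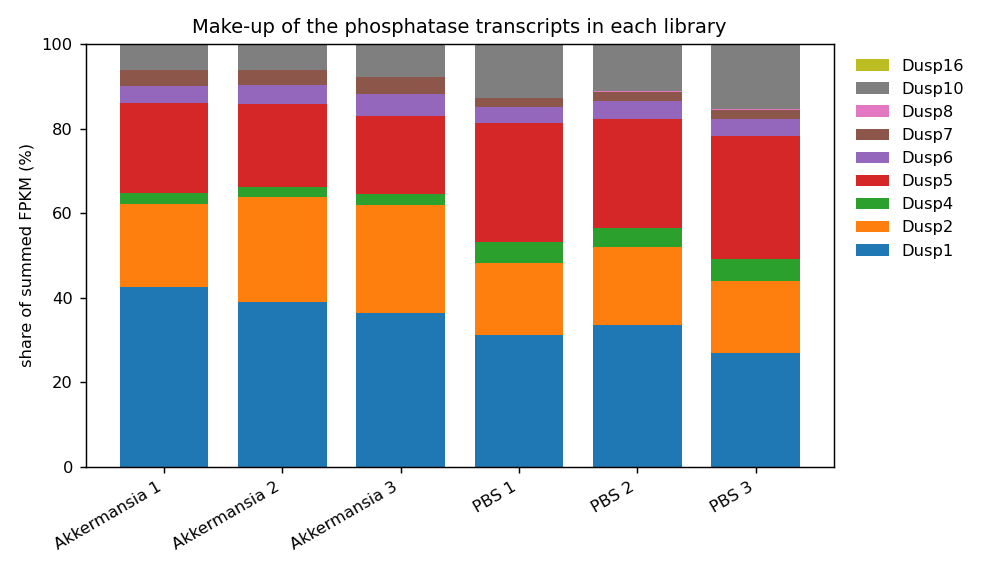
Share of each phosphatase gene in the summed FPKM of the 9 genes, in percent, for each library. Dusp5 and Dusp10 take smaller shares and Dusp1 and Dusp2 larger shares in the 3 Akkermansia libraries than in the 3 PBS libraries, while Dusp8 and Dusp16 are too rare to be seen.

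The members also varied together among the PBS libraries. PBS 2 had the lowest level of the PBS group for 8 of the 9 genes, all except Dusp16, whereas it was the lowest for 37.7% of all genes tested and for 55.1% of the 1253 genes called lower. Its deviation from the PBS mean (log2 CPM) was -0.53 for Dusp10, -0.43 for Dusp4, -0.40 for Dusp5 and -0.21 for Dusp6. PBS 2 was thus nearer to the Akkermansia libraries in these genes but did not reach them. Over the 6 libraries, Pearson's r of log2 CPM was 0.992 between Dusp4 and Dusp5, 0.985 between Dusp4 and Dusp10 and 0.955 between Dusp6 and Dusp10. These correlations are descriptive, since the difference between the groups contributes to each of them. Dusp7 and Dusp16 stood apart over all 6 libraries, with r of -0.54 and -0.13 to Dusp4. Within the PBS group, however, Dusp7 deviated in the same directions as Dusp4 (0.143, -0.206 and 0.063 in PBS 1, PBS 2 and PBS 3, against 0.248, -0.426 and 0.178).

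The genes whose pattern over the 6 libraries was most like that of Dusp4, the member of smallest p, were sought among 8855 other genes with a mean of at least 10 CPM. The 5 with the highest Pearson's r of log2 CPM were Nfil3, a bZIP transcription factor (0.9992), Errfi1, an inhibitor of epidermal growth factor receptor signals (0.9986), Gramd3 (0.9981), Rsrc2 (0.9979) and Tollip, an adaptor of Toll-like receptor signals (0.9978). A search over so many genes with 6 libraries returns high values by construction. Nfil3 averaged 13.2 CPM in the Akkermansia libraries and 44.2 CPM in the PBS libraries (SD 0.887 and 12, n = 3), a log2 fold change of -1.74 ± 0.20 that is near that of Dusp4. Errfi1 averaged 13.1 ± 0.908 and 43.5 ± 10.1 CPM (-1.73 ± 0.16).

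The rest of the MAP kinase pathway, 126 genes on 10 lists, was mixed in direction with the main scaling. When libraries were scaled to CD3 transcripts, nearly all of its calls were lower, as were most calls over all genes tested. Of 111 genes tested, 12 fell and 15 rose (10.8% and 13.5%, against 8.28% and 7.32% of all genes tested), and the median log2 fold change was 0.04. Scaled to the summed counts of the CD3 chains, 28 fell and 3 rose (median -0.14, against -0.19 over all genes tested). Of all genes tested, 18.6% were called lower and 2.32% higher with that scaling. All 12 falls kept their call on that scale, but of the 15 rises only Rasgrp3, Rasgrp4 and Spry2 did. The other 12 rises had values of 0.06 to 0.31 there, with adjusted p from 0.0802 to 0.709. Of the 27 genes called with the main scaling, 9 were called in every fit without 1 library. The total was 12 without Akkermansia 2 and 11 without Akkermansia 3. Other dual-specificity phosphatases, which mostly do not act on MAP kinases, had 0 lower and 1 higher among 13 tested. This was Ssh1, a phosphatase of cofilin (0.32 ± 0.07, log2, SE, adjusted p = 0.00692). The lowest value of that list was that of Dusp14, which did not pass (-1.14 ± 0.45, adjusted p = 0.106). Its mean levels were 1.04 CPM (Akkermansia) and 2.3 CPM (PBS). Every Akkermansia library was below every PBS library for 2 of the 13 genes, Dusp14 included, and above for 2. Dusp9, the remaining classical MAP kinase phosphatase, was below the filter, with mean levels of 0.324 CPM (Akkermansia) and 0.301 CPM (PBS).

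MAP kinase phosphatases of other enzyme classes had 1 lower and 2 higher among 7 tested. Ptpn7, a tyrosine phosphatase of ERK and p38 in lymphocytes, averaged 229 ± 13.4 CPM in the Akkermansia libraries, against 175 ± 10.5 CPM in the PBS libraries (SD, n = 3), and rose by 0.39 ± 0.07 (log2, SE, adjusted p = 0.004). Its call was kept in all 6 fits without 1 library (adjusted p at most 0.0259). Ppp2ca, a catalytic subunit of protein phosphatase 2A, fell by 0.30 (adjusted p = 0.0107) and Ppm1b, a metal-dependent phosphatase, rose by 0.25 (0.0216). Both lost their calls in fits without single libraries, Ppp2ca without Akkermansia 2 or Akkermansia 3 and Ppm1b without any Akkermansia library or PBS 1.

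Of 9 MAP kinase genes tested, 1 fell and 2 rose. Mapk3, which encodes ERK1, averaged 36.7 ± 2.39 CPM in the Akkermansia libraries, against 30.6 ± 5.27 CPM in the PBS libraries (SD, n = 3), and did not pass the test (log2 fold change 0.26 ± 0.12, edgeR adjusted p = 0.167). The JNK genes Mapk8 and Mapk9 had values of -0.23 and -0.17 (adjusted p = 0.119 and 0.213). Mapk14, which encodes p38 alpha, rose by 0.24 ± 0.07 (adjusted p = 0.0266) and Mapk11, p38 beta, by 0.36 ± 0.11 (adjusted p = 0.0434), but neither was called without any Akkermansia library or PBS 1, nor Mapk11 without PBS 2. Mapk6, the atypical kinase ERK3, fell by 0.42 ± 0.07 (adjusted p = 0.00192) and kept its call without any single library.

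Among the kinases upstream, Map2k3 and Map2k4, which activate p38 and JNK, fell by 0.43 and 0.33 (log2, adjusted p = 0.00769 and 0.0123), the only calls among 7 MAP2 kinase genes. Map2k3 was not called without Akkermansia 2 (0.051), and Map2k4 was not called without Akkermansia 1, Akkermansia 3 or PBS 1 (at most 0.059). Map2k1, the activator of ERK, had a value of 0.23 (adjusted p = 0.0575). Of 14 MAP3 kinase genes tested, Map3k8, which feeds ERK downstream of NF-kB signals, fell by 0.51 ± 0.11 (adjusted p = 0.00703), and Map3k14, the NF-kB inducing kinase, rose by 0.38 ± 0.07 (adjusted p = 0.00427). Both were called in all 6 fits without 1 library. Of 12 Ras activation genes, Rasgrp3 and Rasgrp4 rose by 1.15 and 0.97 (adjusted p = 0.00855 and 0.00427), and both kept their calls without any single library. Rasgrp3 is also expressed in B cells, whose markers rose, but a part of such cells in its value was not tested. Rasgrp1, the main activator of Ras in T cells, had a value of 0.17 (adjusted p = 0.128).

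Other inhibitors of Ras and ERK moved in both directions, with 2 lower and 3 higher among 14 tested. Spry1, a Sprouty protein induced by receptor signals, averaged 16.3 ± 4.01 CPM in the Akkermansia libraries, against 33.5 ± 7.79 CPM in the PBS libraries (SD, n = 3), and fell by 1.04 ± 0.21 (log2, SE, adjusted p = 0.0127). Its call was lost without Akkermansia 2 or Akkermansia 3 (at most 0.0575). Spry4 fell by 1.65 (adjusted p = 0.0266), with mean levels of 0.570 CPM (Akkermansia) and 1.81 CPM (PBS). Spry2 rose by 1.599 (adjusted p = 0.0112), with mean levels of 3.65 CPM (Akkermansia) and 1.197 CPM (PBS). Spry2 lost its call without Akkermansia 3 (0.0601) and Spry4 without any Akkermansia library or PBS 2 (at most 0.111). Rasal3, a Ras GTPase activating protein of lymphocytes, rose by 0.49 ± 0.09 (adjusted p = 0.00279) and Rasa3 by 0.30 (adjusted p = 0.00945, but 0.0544 without Akkermansia 2).

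Scaffold proteins of the cascades had 3 lower and 2 higher among 10 tested. The JNK scaffold Sh3rf1 fell by 0.52, the ERK scaffold Ksr2 by 0.88 and Lamtor3 by 0.32 (adjusted p = 0.0102, 0.0224 and 0.0402), while Arrb1 and Iqgap1 rose by 0.41 and 0.26 (0.0106 and 0.025). None of these 5 was called in all 6 fits without 1 library. Among 10 kinases downstream of MAP kinases, Rps6ka1, an ERK-activated ribosomal S6 kinase, rose by 0.31 (adjusted p = 0.0117), but was not called without Akkermansia 2 or Akkermansia 3 (at most 0.0739). Counts of some lists were larger without 1 library: without PBS 2, 3 phosphatases of other classes, 2 MAP3 kinases and 1 downstream kinase fell, and without PBS 3, 4 scaffolds, 3 MAP3 kinases and 2 downstream kinases rose.

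**Figure D4:**
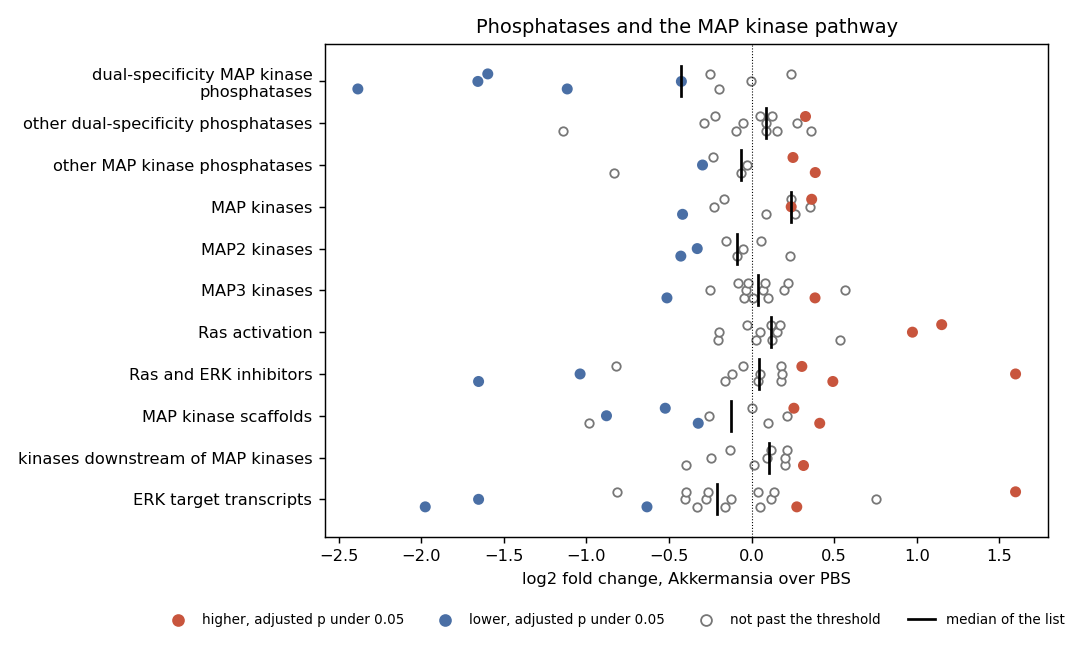
Log2 fold change (Akkermansia over PBS) of every tested gene of the phosphatase family and of 10 lists of MAP kinase pathway genes, with filled points past the threshold and a black line at the median of each list. The phosphatases have the lowest median (-0.42). They have no red point, and neither do the MAP2 kinases. The kinases and Ras regulators lie on both sides of 0 with this scaling, but 12 of the 15 rises were not called with scaling to CD3 transcripts.

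Transcripts used as readouts of ERK activity had 3 lower and 2 higher among 18 tested, 3 of which (Spry2, Spry4 and Spred1) are also on the list of inhibitors. Fosl2, an AP-1 subunit, had 88.9, 82.4 and 82.7 CPM with Akkermansia, against 358, 187 and 453 CPM with PBS, and fell by 1.98 ± 0.37 (log2, SE, adjusted p = 0.0361). PBS 2 was again the lowest PBS library, and the call was lost without any Akkermansia library, PBS 1 or PBS 3 (at most 0.138). Phlda1 averaged 15.1 ± 1.98 CPM in the Akkermansia libraries, against 23.4 ± 1.80 CPM in the PBS libraries (SD, n = 3), and fell by 0.63 ± 0.13 (adjusted p = 0.00572), in all 6 fits without 1 library. The immediate early genes Fos, Egr1, Egr2, Egr3 and Junb had values of 0.04, -0.33, -0.28, 0.12 and -0.40, with adjusted p from 0.102 to 0.855. Others of this kind on the list, Jun, Ier2, Ier3, Fosl1 and Myc, had 0.05, -0.40, -0.81, -0.26 and 0.14 (adjusted p from 0.151 to 0.859). Ier2 was called lower in 4 of 16 alternative fits and Ier3 in 1, and Jun, Fosl1 and Myc in none. Junb was called lower in 5 of 16 alternative fits (adjusted p = 0.0118 with DESeq2), Egr1 in 4 (0.0437 with DESeq2) and Egr2 in 1, while Fos and Egr3 were called in none. Srf, which encodes serum response factor, rose by 0.27 ± 0.08 (adjusted p = 0.0317), but was not called without any Akkermansia library or PBS 2 (at most 0.155). The number of these transcripts called lower was 1 without any 1 of the Akkermansia libraries, 2 without PBS 1 or PBS 3 and 6 without PBS 2. It was 6 with DESeq2, 5 with no filter on low counts and 7 with scaling to CD3 transcripts. Of all genes tested, 8.4%, 5.3% and 18.6% were called lower in these fits, against 8.3% in the main fit.

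The fit was also repeated with each library scaled to the summed counts of the T cell receptor chains Cd3d, Cd3e and Cd3g. This scaling moved the median of all genes to -0.19 (log2), and its calls were 351 higher and 2813 lower, against 1108 higher and 1253 lower with the main scaling. On it Dusp4, Dusp5, Dusp6, Dusp8 and Dusp10 fell by 1.78, 1.30, 0.61, 2.58 and 1.85 (adjusted p at most 0.0102). Relative to the shifted median these values are close to those of the main fit. Without PBS 2, the library that stood apart, the same 5 genes fell by 1.78, 1.29, 0.52, 2.53 and 1.87 (adjusted p at most 0.0347). PBS 2 was the lowest PBS library for each of them, so leaving it out raises their PBS mean and this fit is no independent check. Of all genes tested, 9.04% were called lower in it. The members called lower were 2 without PBS 1 and 3 without Akkermansia 1 or Akkermansia 2, where 5.1%, 4.8% and 4.0% of all genes were.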

How the data were processed

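The members and gene lists were chosen with earlier results of these data known. The authors deposited a table of whole-number read counts for each gene and a table of FPKM values, which also allow for transcript length. The build GRCm39 is named in the submitters' processing notes. No aligner, counter, annotation or strand setting is given in the sources used here, so reads of overlapping genes on opposite strands cannot be told apart. In 5248 genes with high counts, FPKM were proportional to counts, with 1 length per gene, within 0.949%.

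Counts were tested in edgeR 4.0.16 (R 4.3.3) with its quasi-likelihood F test (robust, two-sided, no covariate) after filterByExpr (minimum count 10, minimum total 15; 15138 genes) and scaling by trimmed mean of M values (TMM). P-values were adjusted by Benjamini-Hochberg over all genes tested, and SE were derived from the fold change and F statistic. CPM are counts scaled with the TMM factors. A floor of 3 counts is 0.181 to 0.2 CPM and covers counting error only. The libraries are described as biological replicates. Replicate pairs differed by 4.53 to 6.44 times the sampling variance in the Akkermansia group and by 14.7 to 20.0 times in the PBS group. None agreed within sampling noise, and each library was counted as 1 sample. The spread was thus larger in the PBS group, while the fit used the same dispersion of a gene for both groups. The procedures were also run on simulated counts, which had the same dispersion in both groups and no library set apart. That simulation therefore does not cover the unequal spread of these groups.

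Named genes were all members, up to 4 called genes of smallest p from each list, any gene of lists of 12 or fewer, and the 5 genes most like Dusp4 in pattern. The immediate early genes, Dusp9, Dusp14 and the fifth called inhibitor were named after their values were seen. Alternatives were DESeq2 1.42.0, limma-voom and limma-trend (limma 3.58.1) on log2(FPKM + 1) and log2(FPKM + 0.1), other scalings and filters, the replicate number as a block, and leaving out each library in turn. Figures used matplotlib 3.10.9. The values of 1 gene on the MAP kinase list are not reported here.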

Additional observations from a re-analysis of the deposited data

How the results depend on the processing

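The 5 falls stayed within 1.5 times that number in every alternative except some fits without 1 library, where they ranged from 2 to 5, and no fit called a member higher. There were 6 falls with no filter on low counts, with scaling to CD3 transcripts and with the replicate block (Dusp1 added each time), and 4 on both FPKM scales (Dusp6 lost). Of all genes tested, 5.3%, 18.6% and 8.8% were called lower in the fits with 6 falls, in that order. On the log2(FPKM + 1) and log2(FPKM + 0.1) scales it was 5.6% and 5.5%, against 8.28% in the main fit. No member past the threshold changed sign in any of the 16 alternatives, but neither did Dusp1, Dusp2 or Dusp7, which were not past it. The called pathway genes, 27 in all, ranged from 11 to 34 without 1 library and numbered 40 with no filter, 31 with the block and 20 on both FPKM scales. Same-numbered libraries of the groups deviated together only weakly (r = 0.0846, 0.0774 and 0.0303), although each library correlated best with its own number. Their descriptions share a CD number, but no label ties a number to a shared animal, litter or day, and the replicate numbers were not treated as pairs. In a group of 3, leaving out 1 library changes the spread estimate and the number of samples at once. Over all genes tested, 623 to 1413 were called lower and 519 to 1287 higher without 1 library, and 850 and 798 on log2(FPKM + 1). Dusp8, with 2 to 27 counts in the Akkermansia libraries, is the member most limited by depth.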
